A study of Sus scrofa with 12 samples.

Results

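The genes described here write, read or erase marks on DNA and histones, or move nucleosomes. They were taken by symbol: DNMT, TET, HDAC, SIRT, KDM, KAT, SETD, SMARC, CHD, PRMT and CBX genes, with EZH1, EED and UHRF1. They accounted for 107 of the 24908 probes on the array and for 61 of the 7772 named genes, and 25 of the 61 genes had more than 1 probe. The rule used names alone and no measured value.

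Pig blastocysts of 4 groups were compared, with 3 arrays in each group. In vivo (IVV) embryos came from inseminated gilts, and parthenogenetic (PA) embryos came from matured oocytes that were activated with ionomycin and then 6-dimethylaminopurine and cultured, so they carry no paternal genome. Each origin was collected at the expanded blastocyst stage (XB), with the embryo still in its zona, and at the hatched blastocyst stage (HB). Each array measured the RNA of a pool of 5 embryos, labelled with Cy5, against a Cy3 reference pool that held stages from the immature oocyte to day 11. The labels give collection at 5, 5 and 6 days after insemination for IVV XB and at 5.5 days for IVV HB. For PA the labelled numbers are 5, 6 and 6 for XB and 7 for HB, in a unit written as hours after fertilization in vitro. Origin, culture and the time from insemination or activation change together between IVV and PA and cannot be told apart. No label ties the pools to animals or culture runs, so the spread between arrays may be partly technical.

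After fertilization the mammalian embryo strips most DNA methylation from the parental genomes and lays it down again around implantation. DNMT1, guided by UHRF1, copies methylation onto newly made DNA, DNMT3B sets it anew, and the TET enzymes oxidise it. In mouse, the oocyte loads the egg with its own form of DNMT1. Histone deacetylases and sirtuins take acetyl groups off, acetyltransferases such as KAT5 put them on, Polycomb and HP1 proteins keep genes silent, and SWI/SNF, ISWI and CHD enzymes use ATP to shift nucleosomes.

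Every value below is a log2 ratio of an embryo pool over the reference, and a difference of 1 between groups is a 2-fold change. A probe was called where the limma adjusted p over all 24908 probes was at most 0.05 and the change at least 2-fold. The ratio sets a group against a pool of many stages, so it ranks no gene above another. In bulk RNA of pools, fewer cells of a type and less RNA per cell cannot be told apart. The spread of the log ratios over all probes was taken as the median absolute deviation, multiplied by the usual constant that puts it on the SD scale. It was 0.39 to 0.48 on the IVV arrays and 0.60 to 0.73 on the PA arrays, with array medians of -0.09 to -0.02. The list of oocyte transcripts (13 of 14 listed genes, 18 probes, among them ZP2, ZP3, ZP4, GDF9, MOS and OOEP) had medians far below the reference. They were -3.62 to -2.73 on the IVV arrays and -2.68 to -1.35 on the PA arrays. Some members lay nearer to the reference: both NLRP5 probes had group means of -0.85 to -0.24, and KPNA7 probe 26293 of -0.10 to 0.17. FIGLA had means above the reference in PA, 0.59 in XB and 0.87 in HB. Of the 18 probes of the list, 11 were called higher in PA XB and 9 in PA HB, and 0 were called lower. NPM2 probe 41193 was lower in PA by under 2-fold (PA minus IVV -0.87 at XB and -0.50 at HB). The trophectoderm list (9 of 10 genes, 19 probes) had medians of 0.01 to 0.64 over the 12 arrays. Of the trophectoderm probes, 5 were called higher and 2 lower in PA XB, and 1 higher and 2 lower in PA HB. Of the inner cell mass list 3 of 8 genes were measured (4 probes), and 0 were called. The hypoblast list (3 of 6 genes, 4 probes) had 2 probes called higher in PA XB and 1 in PA HB. GATA6 was higher by 2.23 at XB and 2.06 at HB, and FN1 probe 17764 by 1.17 at XB, where the second FN1 probe differed by 0.29. Lists for cumulus cells, leukocytes, sperm and uterine or oviduct epithelium had medians between -0.65 and 0.37 on every array, with 1 probe called higher in PA at both stages in the cumulus list (AMH) and 1 in the epithelial list (OVGP1). The second AMH probe differed by 0.24 at XB and -0.41 at HB, not called. OVGP1 lay far below the reference, with means of -6.20 in IVV XB, -6.23 in IVV HB, -4.19 in PA XB and -4.68 in PA HB. The part of these differences in spread, oocyte transcripts and other markers in the results below was not tested.

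In expanded blastocysts, 17 of the 107 probes were called between PA and IVV, 11 higher and 6 lower in PA. In hatched blastocysts 8 were called, 7 higher and 1 lower. All probes of DNMT1 were higher in PA XB, as were single probes of KAT5, PRMT7, SMARCA2, CHD8, HDAC10, SMARCE1 and SIRT1, while probes of SIRT3, SMARCA5, CBX3, SMARCAD1, EED and SMARCA2 were lower. The share of called probes, 15.9% at XB and 7.48% at HB, stood beside 12.6% and 8.5% of all probes on the array, so the share was near the background at both stages. Probes higher in PA made up 7.04% of all probes at XB and 4.87% at HB, and probes lower in PA 5.51% and 3.63%. On the adjusted p alone, 22 of the 107 passed at XB and 12 at HB, beside 19.5% and 12.7% of all probes. The groups did not overlap on 37 of the 107 probes at XB and on 33 at HB, against 37.2% and 30% of all probes. By gene, 13 of 61 had at least 1 called probe at XB (21.3%, against 15.9% of all named genes) and 8 at HB (13.1%, against 10.7%). A gene with more probes has more chances of a call, and these shares were not matched for probes per gene. The median difference over the 107 probes was -0.01 at XB and 0.02 at HB, beside 0.03 and 0.02 over all probes, and the median size of a difference was 0.33 and 0.30, beside 0.33 and 0.29. Under quantile normalization, which gives all arrays the same distribution, the XB calls numbered 4 higher and 7 lower and the HB calls 1 and 1. With each array scaled to the same spread they numbered 10 and 4 at XB and 6 and 1 at HB. Of the 17 XB calls 11 were also made after scaling and 9 after quantile normalization, and of the 8 HB calls 2 and 1. The share of all probes called after either rescaling is not given beside these counts.

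**Figure D1:**
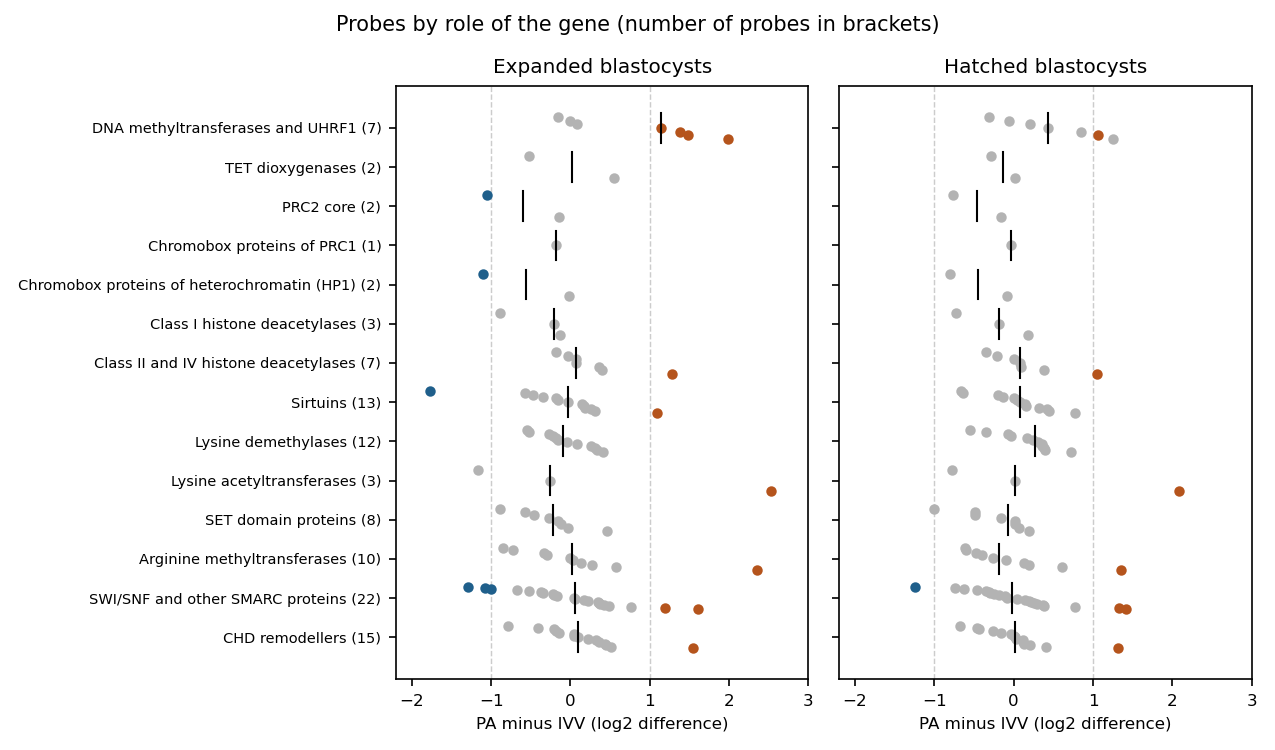
PA minus IVV log2 differences of the 107 probes, grouped by the role of the gene, in expanded (left) and hatched (right) blastocysts. Each point is 1 probe (orange, called higher; blue, called lower; grey, not called), the black bar is the median of the role's probes and dashed lines mark 2-fold; called probes are scattered over many roles, and the DNA methylation genes have 4 at XB.

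DNMT1 stood out as the gene with all of its probes called. Of the 9 genes with several probes and a call at XB, it was the only one with every probe past the threshold (4 of 4), and at HB none of the 6 such genes was. All 4 probes carry the same transcript accession in the array's annotation. Probe 31525 read 0.26, -0.40 and 0.49 in IVV XB, 0.45, 1.57 and 1.15 in IVV HB, 0.90, 2.89 and 2.50 in PA XB, and 1.60, 2.56 and 2.75 in PA HB (replicates 1 to 3). PA lay above IVV at both stages without overlap, by 1.98 at XB (SE 0.47, 3.95-fold, limma adjusted p = 0.0101) and by 1.25 at HB, where it missed the threshold (SE 0.47, limma adjusted p = 0.101).

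The other DNMT1 probes lay far below the reference in every pool, the lowest of the 107. Probe 33415 read -5.30, -5.30 and -5.08 in IVV XB against -4.36, -3.22 and -3.66 in PA XB, a rise of 1.48 (SE 0.33, 2.79-fold, limma adjusted p = 0.0075). In hatched embryos its values of -5.60, -4.64 and -4.99 in IVV and -4.61, -3.88 and -3.53 in PA differed by 1.07 (SE 0.33, 2.1-fold, limma adjusted p = 0.0489) and did not overlap, although the lowest PA HB array lay just above the highest IVV HB array. This was the only DNMT1 probe called at both stages, and its HB call was lost in 7 of 13 alternative settings. Probe 37585 read -6.32, -6.07 and -6.12 in IVV XB against -5.07, -4.62 and -4.67 in PA XB, higher by 1.38 (SE 0.27, 2.61-fold, limma adjusted p = 0.00403). Its HB difference of 0.85 (SE 0.27, limma adjusted p = 0.0551) missed the threshold. Probe 34473 read -5.15, -5.28 and -4.48 in IVV XB and -4.58, -3.30 and -3.63 in PA XB, groups that overlapped, with a difference of 1.13 (SE 0.36, limma adjusted p = 0.0388) and of 0.44 at HB (SE 0.36, limma adjusted p = 0.479). The direction of DNMT1 depended on how the arrays were scaled: quantile normalization gave XB differences of 0.16 for probe 33415, -0.19 for probe 34473 and -0.34 for probe 37585, whereas scaling each array to the same spread gave 3.40, 3.01 and 3.72. Probe 31525 kept its XB call under both, at 1.31 and 1.60, and lost it without IVV XB replicate 2 or PA XB replicate 2. The mean of the 4 probes was higher in PA XB by 1.49 and in PA HB by 0.90, and was called at XB alone. PA XB replicate 1 was lowest of its group on all 4 DNMT1 probes, as it was on 75.4% of all 1754 probes called higher in PA XB. It was also the lowest PA array on the oocyte list (median -2.68). On DNMT1 probes 33415 and 37585 the lowest PA array was instead PA HB replicate 1. A link between DNMT1 and the oocyte transcripts was not tested.

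**Figure D2:**
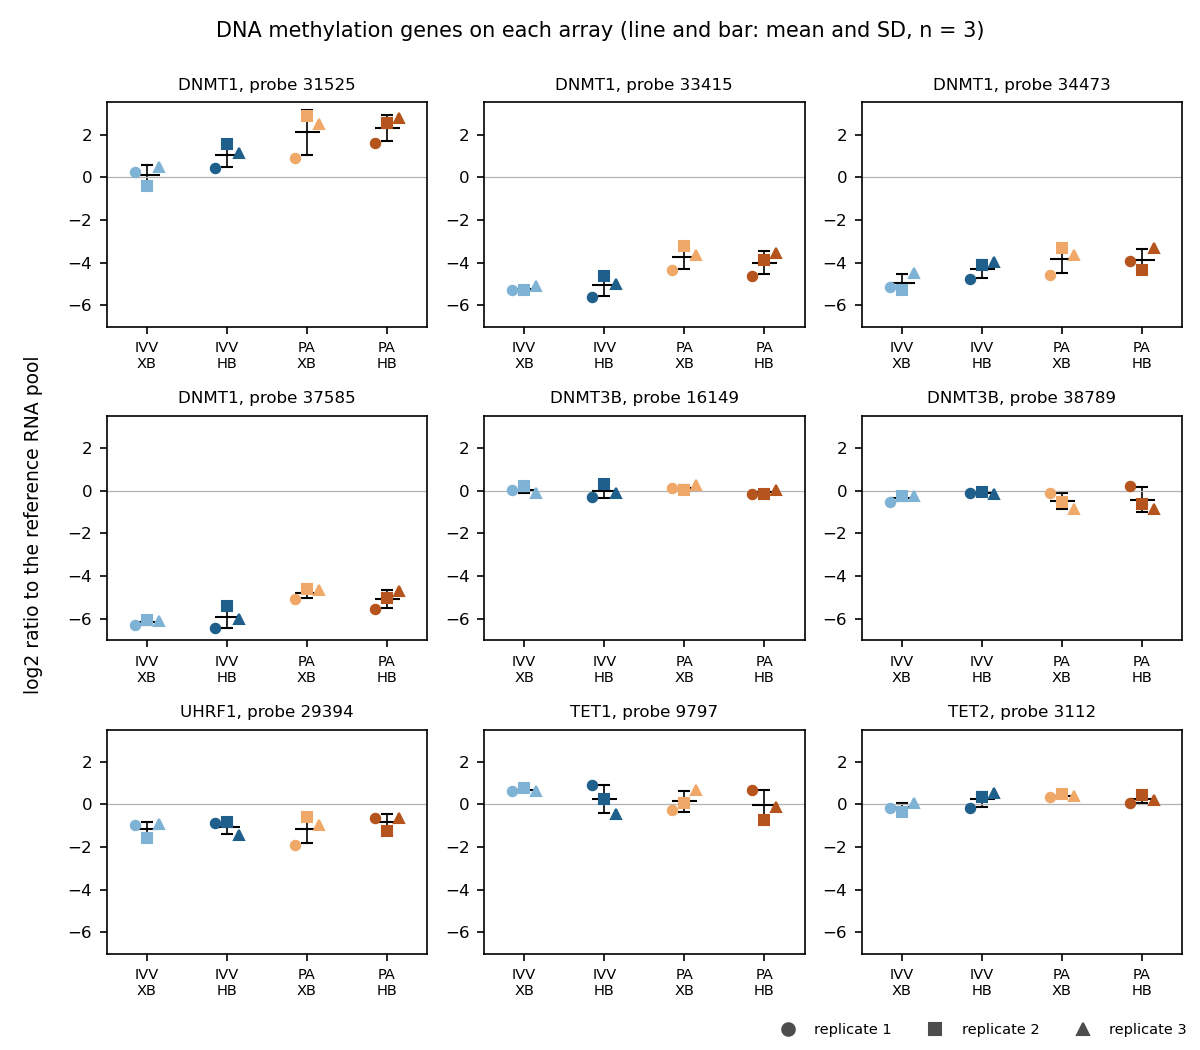
Log2 ratio to the reference of DNMT1 (4 probes), DNMT3B (2 probes), UHRF1, TET1 and TET2 on each of the 12 arrays. Marker shapes give the replicate, the horizontal line the group mean and the bar the SD (n = 3); the means of the DNMT1 probes lie higher in PA than in IVV (2 of the 4 turn under quantile normalization), 3 of them far below the reference, while the other genes lie near or below 0 with groups that overlap at most stages.

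The other genes of DNA methylation were not called. UHRF1 read -1.16 ± 0.35 in IVV XB and -1.17 ± 0.66 in PA XB (SD, n = 3), with a 95% interval of the difference from -0.68 to 0.68. In hatched embryos it read -1.06 ± 0.34 in IVV and -0.85 ± 0.36 in PA. DNMT3B probe 16149 lay at the reference in all groups, between -0.28 and 0.31 on the 12 arrays, and its PA minus IVV differences were 0.09 at XB (interval -0.32 to 0.50) and -0.06 at HB (interval -0.47 to 0.35). DNMT3B probe 38789 differed by -0.16 and -0.32. DNMT3A was not analysed here.

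TET1 and TET2, which oxidise methylated cytosine, were not called either. TET1 read 0.60, 0.76 and 0.62 in IVV XB but -0.30, 0.05 and 0.67 in PA XB, so that only PA replicate 3 reached the IVV values, and the difference was -0.52 (SE 0.37, limma adjusted p = 0.362). TET2 read -0.17, -0.37 and 0.07 in IVV XB against 0.33, 0.50 and 0.37 in PA XB. The TET2 groups did not overlap and differed by 0.55 (SE 0.21, limma adjusted p = 0.0811), under 2-fold, while at HB the difference was 0.01.

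Of the Polycomb and HP1 proteins, EED and CBX3 fell in PA XB. EED, the subunit of Polycomb repressive complex 2 that binds the mark the complex lays down, read 1.18, 1.58 and 1.26 in IVV XB, 1.17, 0.81 and 0.98 in IVV HB, -0.31, 0.71 and 0.45 in PA XB, and 0.46, 0.11 and 0.10 in PA HB. Each PA array lay below every IVV array of both stages. The difference was -1.06 at XB (SE 0.25, 2.08-fold, limma adjusted p = 0.0094) and -0.76 at HB (SE 0.25, 1.7-fold, limma adjusted p = 0.0595), and it was called at both stages after either rescaling. The XB call was lost without IVV XB replicate 2 or without PA XB replicate 1, the lowest array. EZH1, a catalytic subunit of the same complex, differed by -0.14 at XB (interval -0.56 to 0.27) and by -0.16 at HB (interval -0.57 to 0.26). EZH2 and SUZ12 were not analysed here.

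CBX3, the HP1 gamma protein of silent and transcribed chromatin, read -0.16, 0.10 and 0.61 in IVV XB, -0.21, -0.17 and -0.03 in IVV HB, -0.77, -0.98 and -1.03 in PA XB, and -0.56, -1.07 and -1.19 in PA HB. No PA array reached any IVV array. It differed by -1.11 at XB (SE 0.23, 2.15-fold, limma adjusted p = 0.0048). The HB difference of -0.81 (SE 0.23, 1.75-fold, limma adjusted p = 0.033) passed the p limit and not the 2-fold limit, and the XB change fell under 2-fold after scaling the arrays or without IVV XB replicate 3. CBX5, the HP1 alpha protein, differed by -0.01 at XB and -0.08 at HB. CBX8, a chromobox protein of Polycomb repressive complex 1, differed by -0.18 and -0.03.

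Among the class I histone deacetylases, HDAC1 was the one that moved, by less than 2-fold. HDAC1 read 0.69, 0.75 and 0.73 in IVV XB, 0.21, 0.58 and 0.30 in IVV HB, -0.20, 0.01 and -0.30 in PA XB, and -0.20, -0.55 and -0.31 in PA HB. All PA arrays lay below all IVV arrays, with differences of -0.89 at XB (SE 0.18, 1.85-fold, limma adjusted p = 0.00447) and -0.72 at HB (SE 0.18, 1.65-fold, limma adjusted p = 0.0198). HDAC2, its close relative, differed by -0.21 (interval -0.85 to 0.43) and -0.18 (interval -0.82 to 0.46), and HDAC8 by -0.13 and 0.18. HDAC3 was not analysed here.

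HDAC10, a class II enzyme that in human and zebrafish acts on polyamines, had 6 probes and 1 call. Probe 2877 read 0.07, 0.05 and 0.71 in IVV XB, 0.48, -0.35 and 0.64 in IVV HB, 1.52, 1.56 and 1.61 in PA XB, and 0.89, 1.58 and 1.44 in PA HB. It was higher in PA by 1.29 at XB (SE 0.28, 2.44-fold, limma adjusted p = 0.00625) and by 1.05 at HB (SE 0.28, 2.07-fold, limma adjusted p = 0.0267), with no overlap at either stage. Both rescalings ended both calls, and the HB call was lost in 9 of 13 alternative settings. Its other 5 probes differed by -0.19 to 0.40 at XB and by -0.35 to 0.38 at HB, none of them called. The mean of the 6 probes differed by 0.32 at XB and 0.16 at HB and was not called. HDAC11 differed by 0.06 and 0.09.

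The sirtuins, deacylases that depend on NAD, gave 2 called probes of 13, in opposite directions. SIRT3, the main deacetylase of mitochondria, had the smallest p of the 107 probes at XB: probe 30824 read 0.22, -0.18 and -0.08 in IVV XB, -0.54, -1.07 and -0.70 in IVV HB, -2.19, -1.63 and -1.54 in PA XB, and -1.71, -1.47 and -1.13 in PA HB. The difference was -1.78 at XB (SE 0.23, 3.43-fold, limma adjusted p = 0.000462), and the HB difference was -0.67 (SE 0.23, 1.59-fold, limma adjusted p = 0.0757). The other 3 SIRT3 probes differed by -0.47 to 0.25 at XB, not called. The mean of the 4 probes differed by -0.54 at XB and 0.01 at HB. SIRT1, a nuclear deacetylase, read -0.24, -0.28 and 0.09 in IVV XB and 0.36, 1.11 and 1.38 in PA XB on probe 4606, which was higher in PA by 1.09 (SE 0.29, 2.13-fold, limma adjusted p = 0.0181). That probe was not called at HB (0.77, SE 0.29, limma adjusted p = 0.103), and it lost the XB call after either rescaling and without any 1 of 4 arrays. The second SIRT1 probe differed by 0.14 and 0.32. The 7 probes of SIRT2, SIRT4, SIRT5 and SIRT6 were not called at either stage.

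KAT5 showed the largest PA minus IVV difference of the 107 probes at both stages. KAT5, the acetyltransferase also known as TIP60, read 0.36, 0.06 and 0.62 in IVV XB, 0.15, 2.27 and 0.91 in IVV HB, 1.89, 3.66 and 3.08 in PA XB, and 2.33, 3.72 and 3.51 in PA HB. IVV HB replicate 2 lay far above the other IVV arrays and just below the lowest PA HB array. The difference was 2.53 at XB (SE 0.53, 5.78-fold, limma adjusted p = 0.00527) and 2.08 at HB (SE 0.53, 4.23-fold, limma adjusted p = 0.0221). The XB call held in all 13 alternative settings, the only one of the 17 to do so. For a gene with 1 probe, however, the mean of its probes could not change the value. PRMT7 probe 13483, SMARCE1 probe 14623 and SIRT3 probe 30824 lost their XB calls in that setting alone. The KAT5 HB call was lost in 6 of 13 settings, both rescalings and 4 of the 6 fits without 1 array among them, with differences from 1.05 to 2.66. KAT5 had 1 probe on the array with no accession. The probes of KAT2B, another acetyltransferase, differed by -1.17 and -0.26 at XB and were not called.

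The arginine methyltransferase PRMT7 had the second largest difference at XB. Probe 13483 read -0.20, 0.15 and 0.99 in IVV XB, 0.26, 1.09 and 1.41 in IVV HB, 2.66, 2.86 and 2.48 in PA XB, and 1.86, 2.45 and 2.52 in PA HB, so the PA and IVV arrays did not overlap. PA was higher by 2.35 at XB (SE 0.33, 5.1-fold, limma adjusted p = 0.000735) and by 1.35 at HB (SE 0.33, 2.56-fold, limma adjusted p = 0.0195). The XB call was also made after either rescaling and without any 1 array, while the HB call was lost in 6 of 13 alternative settings, both rescalings among them. The other PRMT7 probes gave 0.04 and -0.29 at XB and 0.19 and -0.60 at HB, not called, and the mean of the 3 probes was under 2-fold, at 0.70 and 0.32. PRMT1, the main arginine methyltransferase of most cells, differed by less than 2-fold on all 4 probes, although 2 of them passed the p limit at XB (probe 21802, -0.85, limma adjusted p = 0.0077; probe 33280, -0.73, limma adjusted p = 0.0465).

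None of the 12 probes of lysine demethylases and none of the 8 probes of SET domain proteins was called between PA and IVV at either stage. Over all probes 12.6% were called at XB and 8.5% at HB, so these few probes do not set the families apart. KDM5B, which removes methyl groups from active promoters, had the largest mean difference of the demethylases, -0.52 at XB (interval -1.14 to 0.09) and -0.54 at HB (interval -1.16 to 0.07). KDM5C probe 17347, of a related enzyme encoded on the X chromosome in mammals, read 0.18, 0.73 and 0.44 in IVV HB against 1.10, 1.18 and 1.24 in PA HB. That HB difference of 0.73 (SE 0.20, limma adjusted p = 0.0308) was under 2-fold. The other KDM5C probe differed by 0.34 at XB and 0.36 at HB, and neither passed the p limit. SETD3, which in human and mouse methylates actin, varied widely between pools: its PA XB arrays read 1.72, -0.95 and -0.06, and its differences had wide intervals, from -1.78 to 0.64 at XB and from -2.22 to 0.21 at HB. SETD6 probe 45155 passed the p limit at XB at -0.88 (SE 0.21, limma adjusted p = 0.00984). The other SETD6 probe differed by -0.46 at XB (limma adjusted p = 0.338) and by 0.07 at HB.

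Among the SWI/SNF, ISWI and other SMARC proteins, 5 of 22 probes were called at XB, 2 higher and 3 lower. At HB 3 were called, 2 higher and 1 lower, the lower one being SMARCAD1, counted here as another SMARC protein. SMARCA2, the BRM ATPase of SWI/SNF, held a probe in each direction. Probe 40418 read 1.07, 0.82 and 1.40 in IVV XB, 1.19, 2.37 and 1.34 in IVV HB, 1.91, 3.29 and 2.93 in PA XB, and 2.63, 3.24 and 3.27 in PA HB. It was higher in PA by 1.61 at XB (SE 0.36, 3.05-fold, limma adjusted p = 0.00805) and by 1.42 at HB (SE 0.36, 2.68-fold, limma adjusted p = 0.0238), but after quantile normalization its differences were 0.06 at XB and -0.08 at HB, and both calls were also lost after scaling. Probe 18960 read 1.05, 1.12 and 0.32 in IVV XB, while all 9 arrays of the other groups lay between -0.50 and -0.04. It was 2-fold lower in PA XB (SE 0.22 on the log2 scale, limma adjusted p = 0.00763) and differed by 0.04 at HB. Probe 11323 differed by 0.22 at both stages, and the mean of the 3 probes differed by 0.28 at XB and 0.56 at HB, neither called. SMARCA4, the other SWI/SNF ATPase, differed by 0.37 and 0.20.

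SMARCE1, a DNA-binding subunit of SWI/SNF, read -0.49, -0.24 and 0.04 in IVV XB, -0.38, 0.45 and -0.18 in IVV HB, 0.40, 1.15 and 1.34 in PA XB, and 1.28, 1.13 and 1.45 in PA HB on probe 14623. The groups did not overlap within either stage, and PA was higher by 1.19 at XB (SE 0.27, 2.28-fold, limma adjusted p = 0.0083) and by 1.32 at HB (SE 0.27, 2.5-fold, limma adjusted p = 0.00919), the smallest p of the 107 probes at HB. Both calls were also made after either rescaling. The mean of the gene's probes differed by 0.62 at XB and 1.05 at HB and was called at HB alone. The second SMARCE1 probe, 18624, read 0.37, 0.37 and 0.61 in PA XB, level with IVV (difference 0.04), but 0.55, 1.27 and 1.51 in PA HB, where the difference was 0.77 (SE 0.22, 1.71-fold, limma adjusted p = 0.0374). SMARCB1, a core subunit with 4 probes, was not called at either stage.

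SMARCAD1, a remodeller that helps restore silent chromatin behind the replication fork, was the only probe called lower at both stages. It read -0.01, 0.21 and -0.57 in IVV XB, 0.22, -0.48 and -0.59 in IVV HB, -1.28, -1.58 and -0.75 in PA XB, and -2.12, -1.46 and -0.99 in PA HB. All PA arrays lay below all IVV arrays, with differences of -1.08 at XB (SE 0.33, 2.12-fold, limma adjusted p = 0.032) and -1.24 at HB (SE 0.33, 2.36-fold, limma adjusted p = 0.0261). Both calls were lost after either rescaling. SMARCA5, the ATPase of ISWI remodellers, read -1.82, -1.75 and -2.24 in IVV XB and -3.31, -3.10 and -3.26 in PA XB on probe 31559, a difference of -1.29 (SE 0.27, 2.44-fold, limma adjusted p = 0.00572). Its HB difference was -0.63 (SE 0.27, limma adjusted p = 0.154), and scaling the arrays to the same spread moved the pair to -0.29 at XB and 0.56 at HB. The other SMARCA5 probe lay near the reference and differed by -0.67 and -0.46, not called.

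Of the 15 CHD probes, 1 was called. CHD8, a remodeller that binds beta-catenin, read 0.58, 0.71 and 0.74 in IVV XB, 0.61, 1.81 and 1.11 in IVV HB, 1.44, 2.86 and 2.38 in PA XB, and 1.91, 2.84 and 2.74 in PA HB on probe 38960. PA was higher without overlap, by 1.55 at XB (SE 0.37, 2.93-fold, limma adjusted p = 0.0101) and by 1.32 at HB (SE 0.37, 2.5-fold, limma adjusted p = 0.0324). The XB call was lost after quantile normalization and without PA XB replicate 2, and the HB call in 7 of 13 alternative settings, both rescalings among them. Its other 4 probes differed by 0.04 to 0.51 at XB and by -0.43 to 0.11 at HB, and the mean of the 5 probes differed by 0.52 and 0.21, under 2-fold. Probes of 1 gene can differ in the transcript end or isoform they match, and no probe sequence was used here to tell them apart. CHD4, the remodeller of the NuRD complex, differed by 0.43 and 0.13.

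**Figure D3:**
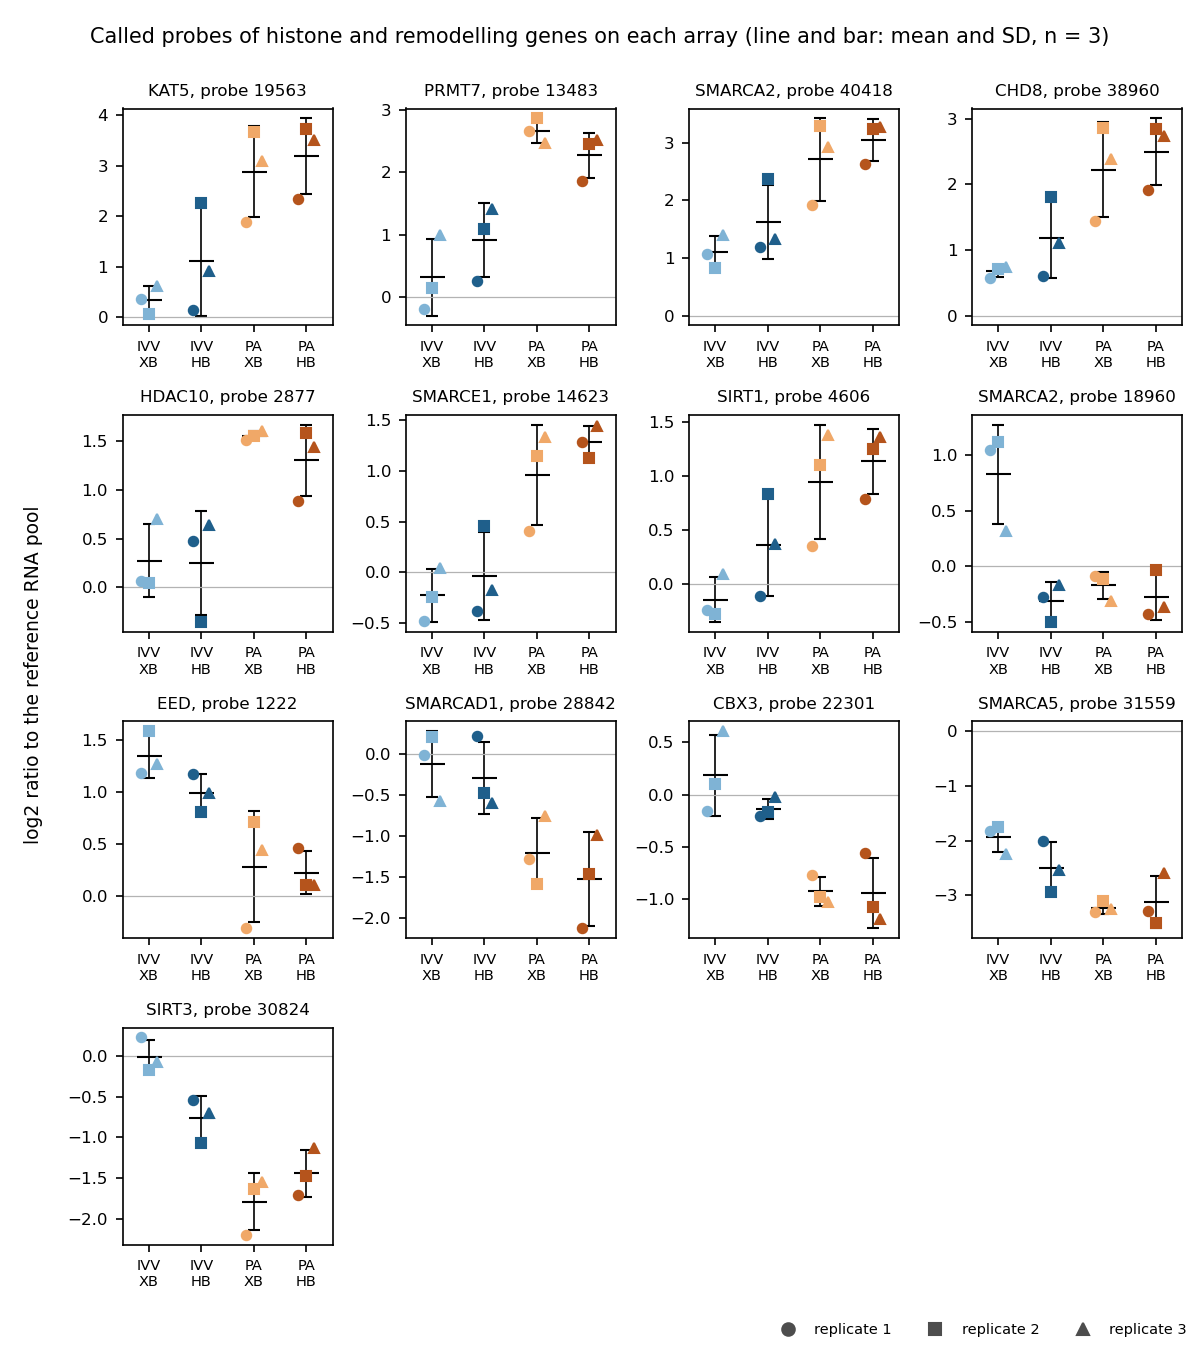
Log2 ratio to the reference of the 13 called probes of genes other than DNMT1 on each of the 12 arrays, ordered by the PA minus IVV difference at XB, each panel with its own vertical scale. Marker shapes give the replicate, the horizontal line the group mean and the bar the SD (n = 3); IVV HB replicate 2 and PA XB replicate 1 often lie toward the other origin, as in KAT5, CHD8 and SMARCA2 probe 40418.

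The probes called higher in PA shared an order of arrays. Among the 11 called higher in PA XB, IVV XB replicate 3, collected at 6 days against 5 days for the others, was the highest IVV XB array on 10, and PA XB replicate 1, with the lower labelled time, was the lowest PA XB array on 10. IVV HB replicate 2 was the highest of its group on 8 of the 11 and IVV HB replicate 1 the lowest on 10. The order was not particular to chromatin genes: among all 1754 probes called higher in PA XB the same arrays held these places on 80.1%, 75.4%, 74.8% and 91.6%. Among the members, the HB calls depended on which arrays were in the fit. Matching shares over all probes are not given for these fits, so the counts are not read as particular to chromatin genes. Leaving out 1 IVV HB array left 0 (replicate 1), 9 (replicate 2) or 4 (replicate 3) members called at HB. Leaving out 1 PA HB array left 11, 1 or 2, in the order of the replicates. None of the 8 HB calls held in all 6 of these fits, and SMARCE1 probe 14623 was lost only without IVV HB replicate 1. At XB, 9 of the 17 calls held in all 6 fits: KAT5, PRMT7, SMARCE1, HDAC10, SIRT3, SMARCA5, SMARCA2 probe 40418 and DNMT1 probes 33415 and 37585. The lowest XB count was 11, without IVV XB replicate 2.

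Expanded and hatched embryos were separate pools, but the stages are not independent checks of each other. Both comparisons used the same estimate of each probe's spread. Same-numbered PA XB and PA HB arrays also deviated together (correlations 0.45, 0.32 and 0.22). All 8 probes called at HB were called at XB in the same direction (100% of the HB calls and 47.1% of the XB calls). Over the whole array these shares were 75.4% and 51.1%. Of the 17 probes called at XB, 16 had the same sign at HB and 15 had a smaller difference at HB (88.2%, beside 87.2% of all probes called at XB). The exception in sign was SMARCA2 probe 18960. Over the 107 probes the XB and HB differences had a Pearson correlation of 0.84 and a Spearman correlation of 0.73, beside 0.82 and 0.74 over all probes, given as a description across probes that share arrays and base composition.

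**Figure D4:**
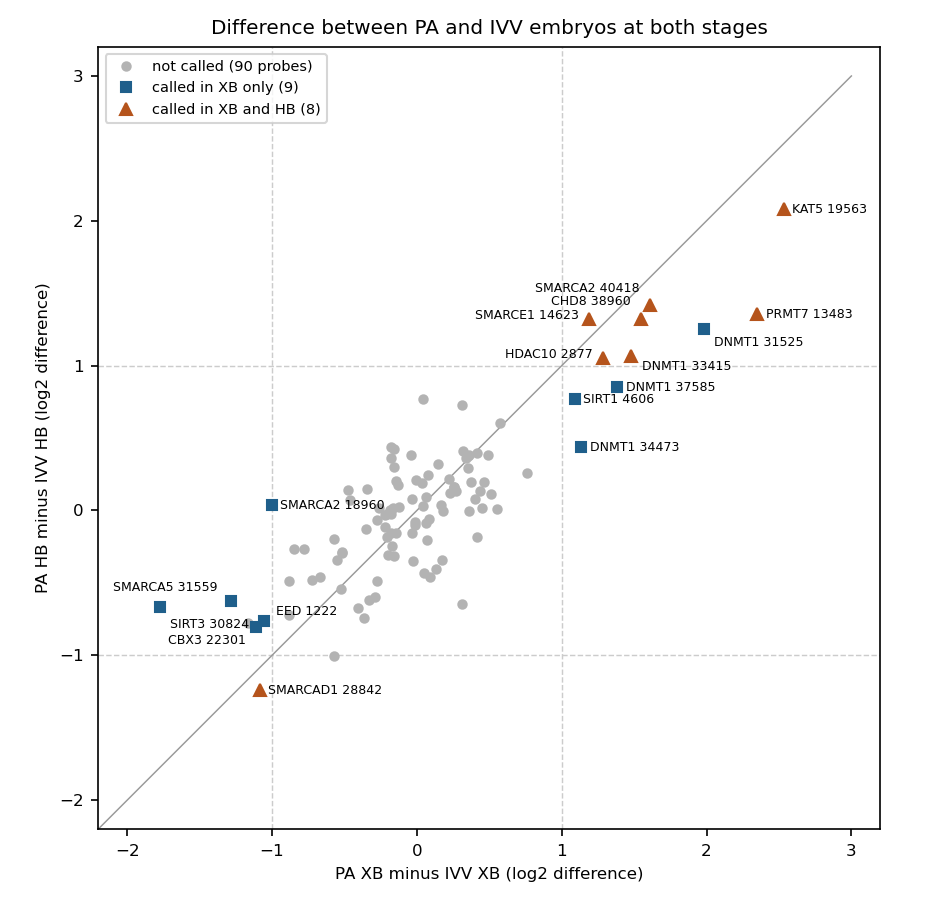
PA minus IVV log2 difference of each of the 107 probes at the expanded (horizontal) and hatched (vertical) stage. Triangles are the 8 probes called at both stages, squares the 9 called at XB alone and grey points the 90 not called; dashed lines mark 2-fold, the diagonal marks equal differences, and most called probes lie closer to 0 at HB than at XB.

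No change was called among these genes between expanded and hatched embryos of the same origin. Stage and collection time are mixed in these comparisons. IVV XB replicate 3 was labelled 6 days, later than the 5.5 days of IVV HB. PA HB was labelled 7, later than PA XB (5, 6 and 6). Between IVV XB and IVV HB, 0 of the 107 probes were called by limma (4 at an unadjusted p under 0.05, beside 6.36% of all probes), against 0.149% of all probes, and between PA XB and PA HB 0 were called (6 unadjusted, beside 6.35%), against 0.00803%. The median 95% interval reached 0.49 to each side of the estimate. The whole interval lay within 2-fold for 89 of the 107 probes in IVV and for 91 in PA. The largest change was that of SMARCA2 probe 18960, which fell from 0.83 ± 0.45 in IVV XB to -0.32 ± 0.17 in IVV HB without passing the threshold (-1.15, SE 0.22, limma adjusted p = 0.0745). It was called after scaling the arrays (-1.44), after quantile normalization (-1.97) and without IVV XB replicate 3 (-1.40), the array nearest to IVV HB. SIRT3 probe 30824 differed by -0.76 between IVV HB and IVV XB (SE 0.23, limma adjusted p = 0.365) and by 0.35 between PA HB and PA XB. The test of whether hatching changed expression differently in PA and IVV called 0 of the 107 probes (7 at an unadjusted p under 0.05, beside 4.93% of all probes), against 0.00803% called over the array, and its lowest limma adjusted p was 0.835, for that SIRT3 probe, whose changes differed by 1.11 (SE 0.33). Same-numbered PA arrays deviated together, although no label pairs them. With the replicate number as a block in the 6 PA arrays, PA HB and PA XB still gave 0 called members.

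**Figure D5:**
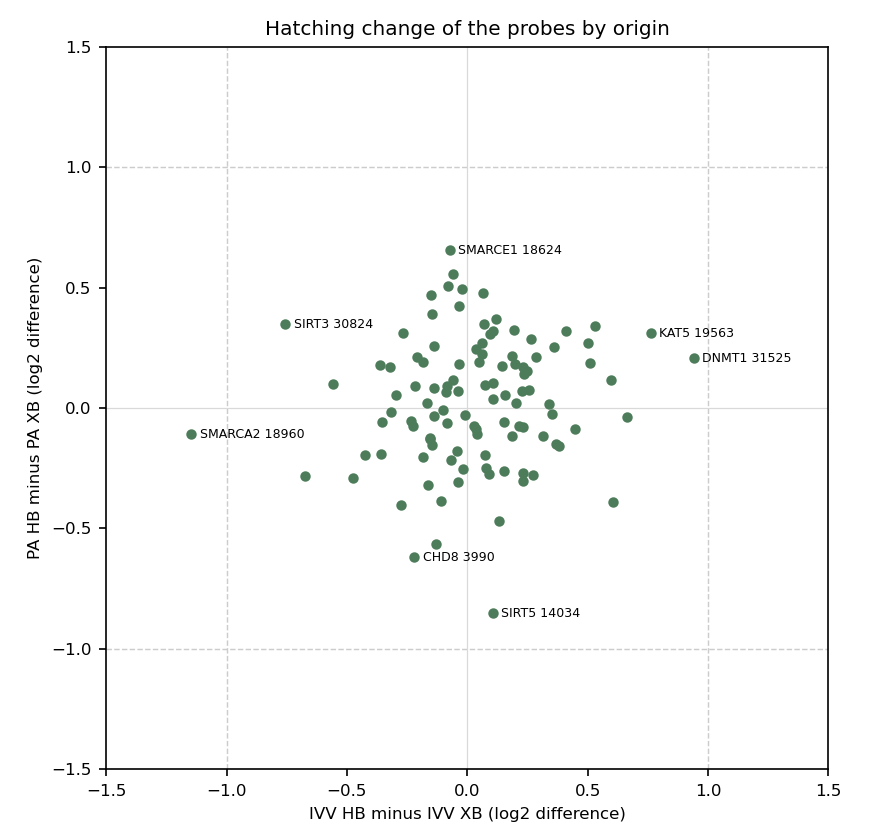
Difference between hatched and expanded blastocysts of each of the 107 probes in IVV (horizontal) and PA (vertical) embryos, in log2 units. Dashed lines mark 2-fold; all but SMARCA2 probe 18960 lie inside them, and no probe was called.

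Partners and relatives of these genes that the naming rule left out were measured on 123 probes of 81 genes. Of these, 12 were called higher and 2 lower in PA XB, and 7 higher and 3 lower in PA HB, and 0 were called with hatching. These are 11.4% and 8.13% of the 123 probes, beside 12.6% and 8.5% of all probes, so their share too was near the background. Called higher at both stages were PHF1 (2.86 at XB and 2.14 at HB) and ASXL1 (2.37 and 2.16), which work with Polycomb complexes, MYST2 (2.38 and 2.01), the acetyltransferase now named KAT7, BRD2 (1.97 and 1.76), a reader of histone acetylation, DPF2 (2.07 and 1.93), a SWI/SNF subunit, and GATAD2B (1.02 and 1.10), a NuRD subunit. CHAF1A, the large subunit of the chromatin assembly factor that loads histones onto new DNA, was called on both of its probes at XB (2.40 and 1.10) and on 1 at HB (1.93). PCGF5, a subunit of Polycomb repressive complex 1, was called lower at both stages (-1.23 and -1.09). The methyl-CpG protein MBD3 was called lower at HB (-1.52) and level at XB, and MBD4, a DNA glycosylase, was called lower at XB (-1.08). MYST1, SMYD5, SIN3A and SUPT16H were called higher at XB alone, by 1.04 to 2.32, and DPY30 was called lower at HB, at the 2-fold limit.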

How the data were processed

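Values were the log2 ratios deposited by the authors for 12 two-colour EMPV1 arrays (amplified RNA of pools of 5 embryos in Cy5, reference pool in Cy3), for which the authors subtracted background and ran a global loess on each array in FlexArray. Spot intensities were not used here, so signal over background is unknown, and the number of arrays limits precision. The labels state neither log base nor direction. The values were taken as log2 of Cy5 over Cy3 from their centre near 0, from medians of the oocyte list far below 0 in blastocysts set against a pool holding oocytes, and from the methods, so every sign and fold rests on that reading. Of 24908 probes, 10735 had 1 gene symbol in the platform annotation and 14173 none. Of the 107 member probes 39 had an accession, and 24 matched a RefSeq transcript of the same symbol. Members, role lists and marker lists were chosen with earlier results of these data known.

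The limma package and the call limits follow the study's methods. limma 3.58.1 (R 4.3.3) was fitted to all 12 arrays with 4 group means. The methods also set a threshold for positive spots from negative control spots, which was not applied here, so all probes were kept, and p was adjusted by Benjamini-Hochberg over 24908 probes. A call needed both a 2-fold change and an adjusted p no higher than 0.05. The fit was run on simulated arrays with independent noise, which lack the shared deviations and unequal spread of the real arrays. That run checked the code and not the calls made here. Named were every gene with a called probe, all DNA methylation, TET, PRC2 and class I deacetylase members, and the largest mean difference in each other role. KDM5C, SETD6, PRMT1, KAT2B, CBX5, SMARCA4, SMARCB1, CHD4, HDAC11, SIRT2, SIRT4, SIRT5 and SIRT6 and the genes outside the rule were added after their values were seen. Same-numbered PA XB and PA HB arrays deviated together (correlations 0.45, 0.32 and 0.22), with no label saying why. In the other comparisons same-numbered arrays did not all deviate together. Alternatives were 2 normalizations between arrays, a replicate block, the compared groups alone, the more variable 50% of probes, the mean of a gene's probes, no fold limit and leaving out each array; after seeing the data, a block in the PA arrays alone and a fit without IVV HB replicate 2 and PA XB replicate 1 were added. Figures were drawn with matplotlib 3.10.9.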

Additional observations from a re-analysis of the deposited data

How the results depend on the processing

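Members called between PA HB and IVV HB numbered 8 in the fit reported and ranged from 0 to 11 with 1 array left out, with 2 under quantile normalization and 3 genes (of 8) from the mean of each gene's probes. Between PA XB and IVV XB they numbered 17 and ranged from 11 to 17 with 1 array left out, with 11 under quantile normalization and 5 genes (of 13) from the mean of probes. The mean of probes leaves the value of a gene with 1 probe unchanged. Among called genes with several probes, only SMARCE1 at HB and DNMT1 at XB were still called from it. Between IVV HB and IVV XB the count of 0 became 1 after scaling and after quantile normalization, and ranged from 0 to 1 with 1 array left out. PA HB against PA XB and the hatching difference gave 0 in each setting. Without a fold limit 12 and 22 members were called at HB and XB. With the replicate block 9 and 17 were called, and it changed no other count. Without IVV HB replicate 2 and PA XB replicate 1 together, chosen after seeing the data, 10 and 16 were called. The rescalings moved the median of all probes by less than 0.1. Shares of all probes called in these settings are not given, so the counts are not read as particular to chromatin genes.

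Directions that turned were mostly of probes never called. At HB, scaling gave TET2 -0.078, HDAC2 0.075, CBX8 0.0073 and SMARCA5 probe 31559 0.56, and quantile normalization gave TET2 -0.053, DNMT3B probe 16149 0.0090, CBX8 0.024, DNMT1 -0.47 (34473) and -0.31 (37585) and SMARCA2 probe 40418 -0.081. At XB, scaling gave UHRF1 0.46 and DNMT3B probe 38789 0.0075, and quantile normalization UHRF1 0.22, DNMT3B probe 38789 0.014 and DNMT1 -0.19 (34473) and -0.34 (37585). The mean of probes gave SIRT3 0.014 at HB, and DNMT3B -0.036 and SMARCA2 0.28 at XB. Without the pair of arrays together, DNMT3B probe 16149 was 0.10 and SMARCA2 probe 18960 -0.054 at HB, and UHRF1 was 0.36 at XB. The cause of these turns was not tested.

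With 1 array left out, the differences that turned ranged, at HB TET2 (probe 3112) -0.18 to 0.16, TET1 (probe 9797) -0.65 to 0.047, HDAC2 (probe 24926) -0.46 to 0.036, CBX8 (probe 29383) -0.23 to 0.26, DNMT3B (probe 16149) -0.19 to 0.10 and SMARCA2 (probe 18960) -0.081 to 0.11, and at XB UHRF1 (probe 29394) -0.28 to 0.36, HDAC8 (probe 20214) -0.23 to 0.036, SETD3 (probe 39234) -1.31 to 0.021, HDAC2 (probe 24926) -0.39 to 0.022 and DNMT3B (probe 38789) -0.35 to 0.019.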
